A study of Mus musculus with 12 samples.

Results

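A set of 9 genes of the Notch pathway were followed through 12 RNA sequencing libraries of mouse embryonic fibroblasts. They are the receptor genes Notch1, Notch2 and Notch3, the ligand gene Jag1, the target genes Hes1, Hey1, Hey2 and Heyl, and the feedback inhibitor gene Nrarp. These 9 genes were taken by name from the 26305 gene identifiers of the count table, and all 9 were among the 13499 genes that passed the filter on low counts. They were selected on count values of these same libraries, with their differences between the times known, so the differences between 240 h and 96 h of culture are described below, and the counts that passed a threshold are printed only beside those of all genes, with nothing read from them. The cells were isolated from wild type C57BL/6 male embryos at E13.5 and grown in low oxygen. The groups were WM-2474 for 240 h, DMSO for 240 h, WM-2474 for 96 h and DMSO for 96 h, with 3 biological replicates each. WM-2474 was given at 10 µM and is named by the labels as a control compound that is inactive, and DMSO was its vehicle. No untreated culture and no active compound were among these samples. The labels do not say which embryos or cultures the replicates came from, so every p-value here measures only the spread between these libraries.

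Notch receptors sit in the cell membrane and are cut when a Jagged or Delta-like ligand on a neighbouring cell binds them. The released intracellular part enters the nucleus, joins the DNA-binding protein RBPJ and Mastermind-like coactivators, and switches on target genes, of which the Hes and Hey repressors and Nrarp are the best known. In the vessel wall, Jag1 and Notch3 are known for their part in the differentiation of smooth muscle cells and pericytes.

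RBPJ binds the letters TGGGAA, often inside GTGGGAA. Those letters were searched on both strands in promoter windows of 300 bases, which run 250 bases before to 50 bases after a gene's start, from RefSeq on GRCm38.p6. A window was at hand for 6 of the 9 genes: Notch1, Notch2, Notch3, Jag1, Hey2 and Nrarp. Of these 6 windows, 1 held the letters, that of Hey2, and it held them at 2 places. The matches begin 207 bases (position -207) and 3 bases (position -3) before the start of the gene, the first on the opposite strand and the other on the same strand, and both have the longer form with the extra G. Among 32851 RefSeq promoter windows of this length, 25.6% held TGGGAA, and 3.79% held it at 2 or more places. The longer form GTGGGAA, which contains the shorter one, was in 6.38% of windows and at 2 or more places in 0.256%. The Hey2 window is shown with the matches to TGGGAA or its reverse complement TTCCCA in capitals, next to the windows of Notch3 and Jag1, the receptor and the ligand whose levels differed most between the times, which hold neither. Each is printed 5′ to 3′ on the strand of its gene, and all 3 genes lie on the minus strand, Hey2 at chr10:30842734-30843033, Notch3 at chr17:32166841-32167140 and Jag1 at chr2:137116471-137116770. A match describes the letters in this window and not binding.
Hey2: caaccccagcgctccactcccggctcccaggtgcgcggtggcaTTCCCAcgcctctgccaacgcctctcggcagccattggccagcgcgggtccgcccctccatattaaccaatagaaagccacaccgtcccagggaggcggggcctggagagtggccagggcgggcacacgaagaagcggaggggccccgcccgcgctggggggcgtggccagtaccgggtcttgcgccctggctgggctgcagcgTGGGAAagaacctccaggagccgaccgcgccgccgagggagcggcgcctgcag
Notch3: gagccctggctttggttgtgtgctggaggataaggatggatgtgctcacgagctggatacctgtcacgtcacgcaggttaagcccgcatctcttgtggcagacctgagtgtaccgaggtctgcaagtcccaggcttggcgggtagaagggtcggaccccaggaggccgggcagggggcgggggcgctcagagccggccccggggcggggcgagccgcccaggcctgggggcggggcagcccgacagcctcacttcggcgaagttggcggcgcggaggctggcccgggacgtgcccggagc
Jag1: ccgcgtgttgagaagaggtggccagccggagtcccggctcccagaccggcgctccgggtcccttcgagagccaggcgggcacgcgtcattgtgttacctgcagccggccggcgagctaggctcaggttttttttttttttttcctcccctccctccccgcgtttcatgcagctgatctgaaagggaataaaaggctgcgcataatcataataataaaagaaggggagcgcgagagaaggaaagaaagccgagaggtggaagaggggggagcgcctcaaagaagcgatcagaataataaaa

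Levels are given as RPKM, the counts scaled to the exon length of the gene and to the library size after TMM scaling, and they can be compared between genes. Library totals ran between 7313007 and 26019167 counts. A floor of 3 counts corresponded to 0.120 to 0.425 CPM per library, for counting error only. CPM are counts scaled to the library size after TMM scaling, without the exon length. Hes1 had the highest level of the 9 genes in every group and Nrarp or Heyl the lowest. At 240 h the next gene was Jag1, followed by Notch2, Notch3 and Notch1, and then by Hey2, Hey1 and Heyl within each other's range. At 96 h Notch2 stood above Jag1, followed by Notch3 and Notch1, and the 3 Hey genes and Nrarp were all below 0.7 RPKM. The libraries of Notch2 and Notch3 overlapped in WM-2474 cultures at 240 h, and those of Notch3 and Notch1 in WM-2474 cultures at 96 h. In this bulk RNA, fewer cells of a type and less RNA per cell cannot be told apart.

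**Figure D1:**
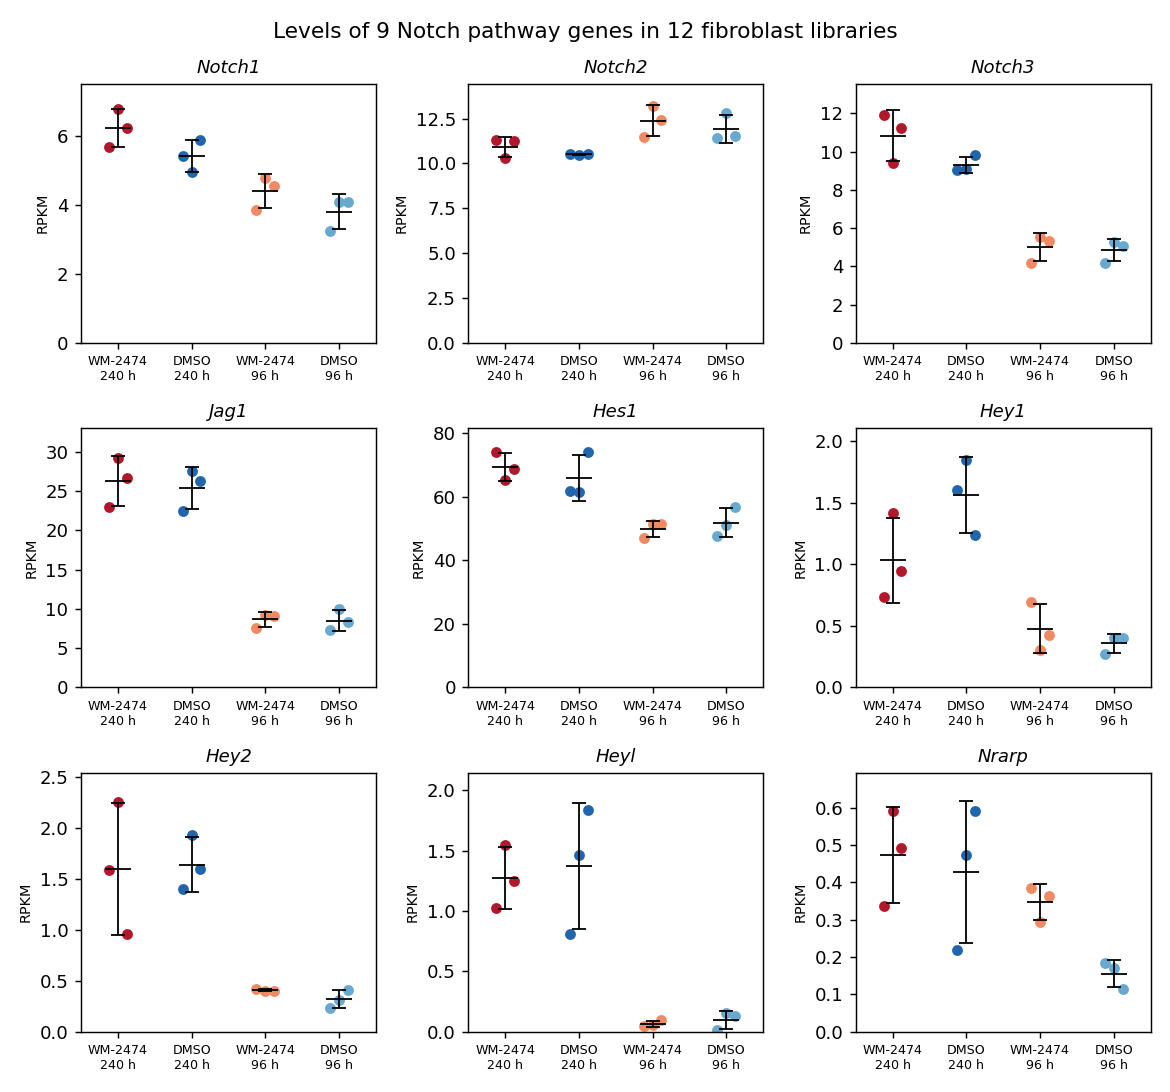
Levels in RPKM (vertical axes, each starting at 0) of the 9 genes in the 12 libraries, with 1 point per library and the mean ± SD of 3 libraries in black, by treatment and hours. In 8 panels the mean is higher at 240 h than at 96 h in both treatments, and for Notch2 it is lower, while WM-2474 and DMSO points of one time mostly lie side by side.

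The receptor genes did not move together with time. Notch3, the receptor known from mural cells, was about 2 times as high at 240 h, Notch1 was higher by less than that, and Notch2 was slightly lower.
Notch3 (chromosome 17, 32120820 to 32166896) had 11.9, 9.38 and 11.2 RPKM with WM-2474 at 240 h, against 4.15, 5.51 and 5.32 RPKM with WM-2474 at 96 h. With DMSO it had 9.04, 9.08 and 9.80 RPKM at 240 h, against 4.18, 5.26 and 5.07 RPKM at 96 h. Every 240 h library lay above every 96 h library, and the fitted log2 fold change, 240 h over 96 h, was 1.12 ± 0.12 (SE, n = 3 libraries per group) with WM-2474 and 0.96 ± 0.12 with DMSO.
Notch1 (chromosome 2, 26457902 to 26503822) had 5.68, 6.78 and 6.24 RPKM with WM-2474 at 240 h, against 3.85, 4.78 and 4.56 RPKM with WM-2474 at 96 h. In DMSO cultures the values were 5.43, 4.97 and 5.90 RPKM at 240 h, against 3.23, 4.09 and 4.09 RPKM at 96 h. Again the 240 h libraries were all above the 96 h libraries, with a narrow gap, and the log2 fold changes were 0.52 ± 0.10 with WM-2474 and 0.54 ± 0.10 with DMSO.
Notch2 (chromosome 3, 98013538 to 98150367) had 11.3, 10.3 and 11.2 RPKM with WM-2474 at 240 h, against 11.5, 13.2 and 12.4 RPKM with WM-2474 at 96 h. With DMSO it had 10.6, 10.5 and 10.5 RPKM at 240 h, against 11.4, 12.8 and 11.6 RPKM at 96 h. The 240 h libraries were all lower here, by a log2 fold change of -0.18 ± 0.06 in either treatment, the smallest difference of the 9 genes. Exons of Notch1, Notch2 and Notch3 overlap those of other annotated transcripts (0610009E02Rik and Gm13568 on the opposite strand of Notch1, Gm42820 on the same strand as Notch2, and Gm17276 antisense to Notch3), and since the strand setting of the counting is not given in the sources used here, their counts can hold reads of these transcripts.

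These differences changed the make-up of receptor transcripts. Notch3 made up 38.3 ± 2.92% (SD) of the summed RPKM of Notch1, Notch2, Notch3 and Notch4 with WM-2474 at 240 h, against 22.6 ± 1.34% with WM-2474 at 96 h. With DMSO its share was 36.5 ± 0.584% at 240 h, against 23.2 ± 1.06% at 96 h. Notch2 was the most abundant receptor transcript at 96 h, with 56.3 ± 1.78% in WM-2474 and 57.5 ± 2.61% in DMSO cultures. At 240 h Notch2 held 38.7 ± 0.182% with WM-2474, level with Notch3 there, and 41.4 ± 1.56% with DMSO. The share of Notch1 stayed between 17.0 and 25.4% in all 12 libraries. Notch4, a receptor known from endothelium and not among the 9 genes, contributed 0.417 to 1.70% per library. The summed receptor level itself was 28.2 ± 1.35 RPKM with WM-2474 and 25.5 ± 0.970 RPKM with DMSO at 240 h, against 22.0 ± 2.15 RPKM with WM-2474 and 20.8 ± 1.72 RPKM with DMSO at 96 h.

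**Figure D2:**
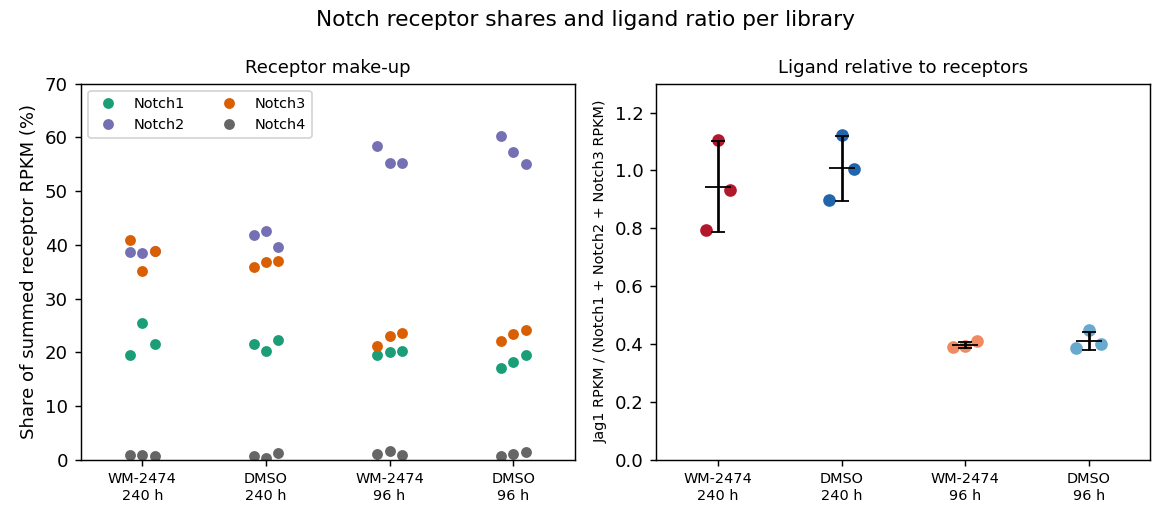
Left, share of each receptor gene in the summed receptor RPKM (percent), and right, the ratio of Jag1 RPKM to the sum of Notch1, Notch2 and Notch3 RPKM, with 1 point per library and, on the right, the mean ± SD of 3 libraries. Notch2 points stand above 55% at 96 h and near 40% at 240 h, where Notch3 reaches 35 to 41%, and the ligand ratio is 0.79 to 1.12 at 240 h and 0.39 to 0.45 at 96 h.

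Jag1, which encodes the membrane ligand Jagged1, was about 3 times as high at 240 h as at 96 h.
Jag1 (chromosome 2, 137081451 to 137116520) had 22.9, 29.2 and 26.7 RPKM with WM-2474 at 240 h, against 7.59, 9.27 and 9.12 RPKM with WM-2474 at 96 h. With DMSO the levels were 22.4, 27.5 and 26.3 RPKM at 240 h, against 7.29, 9.92 and 8.30 RPKM at 96 h. No library of one time came near those of the other, and the log2 fold changes were 1.61 ± 0.14 with WM-2474 and 1.60 ± 0.14 with DMSO. The mean rank of Jag1 among the 13499 tested genes, by RPKM, was at the 76.7th percentile with WM-2474 and the 76.3rd with DMSO at 240 h, against the 47.7th with WM-2474 and the 47.2nd with DMSO at 96 h.
The ratio of Jag1 to the summed Notch1, Notch2 and Notch3 levels was 0.944 ± 0.156 (SD) with WM-2474 at 240 h, against 0.398 ± 0.0101 with WM-2474 at 96 h. In DMSO cultures it was 1.01 ± 0.113 at 240 h, against 0.411 ± 0.0317 at 96 h. The 240 h and 96 h ratios did not overlap in either treatment.
Among the Jagged and Delta-like ligand genes almost all transcript was Jag1. Its mean share of the summed RPKM of Jag1, Jag2, Dll1, Dll3 and Dll4 was between 97.4 and 99.3% in the 4 groups. Dlk1, which was on the wider list of receptors and ligands, was not in this sum. It stood above Jag1 at both times, with 38.7 to 58.6 RPKM at 240 h and 42.1 to 58.0 RPKM at 96 h. The other ligand genes in the sum had at most 12 counts (Jag2), 5 counts (Dll1), 1 count (Dll3) and 3 counts (Dll4) in any library and did not pass the filter. At these counts a difference in the minor ligands was not detectable.

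Of the target genes, Hes1 was abundant at both times and differed little, and the Hey genes were sparse at 96 h and higher at 240 h. At 96 h Hey1 had 8 to 23 counts per library, Hey2 9 to 16 and Heyl 1 to 8.
Hes1 (chromosome 16, 30065357 to 30067796), a basic helix-loop-helix repressor that also represses its own gene, had 74.3, 65.4 and 68.9 RPKM with WM-2474 at 240 h, against 47.1, 51.6 and 51.4 RPKM with WM-2474 at 96 h. With DMSO it had 61.8, 61.6 and 74.2 RPKM at 240 h, against 47.7, 51.1 and 56.8 RPKM at 96 h. The 240 h libraries were all higher, with log2 fold changes of 0.47 ± 0.08 with WM-2474 and 0.37 ± 0.08 with DMSO.
Heyl (chromosome 4, 123233556 to 123249870), a Hey family repressor known as a Notch3 target in smooth muscle, showed the widest gap of the 9 genes. It had 43, 92 and 49 counts with WM-2474 at 240 h, against 3, 3 and 5 counts with WM-2474 at 96 h, and with DMSO 26, 49 and 208 counts at 240 h, against 1, 8 and 8 counts at 96 h. As levels these were 1.03, 1.55 and 1.25 RPKM with WM-2474 and 0.812, 1.47 and 1.84 RPKM with DMSO at 240 h, and at 96 h 0.0440, 0.0556 and 0.0942 RPKM with WM-2474 and 0.0130, 0.155 and 0.131 RPKM with DMSO. The fitted log2 fold change was 4.32 ± 0.47 with WM-2474, with a 95% interval of 3.32 to 5.32. In DMSO cultures it was 4.01 ± 0.41, with an interval of 3.13 to 4.88. These intervals are wide because the 96 h libraries together held 28 counts, some at or under the floor of 3.
Hey2 (chromosome 10, 30832359 to 30842783), known from arterial and cardiac development and shown above with its promoter window, had 1.59, 2.26 and 0.959 RPKM with WM-2474 at 240 h, against 0.420, 0.398 and 0.405 RPKM with WM-2474 at 96 h. With DMSO it had 1.40, 1.93 and 1.60 RPKM at 240 h, against 0.233, 0.312 and 0.409 RPKM at 96 h. The times stood apart in both treatments, with log2 fold changes of 2.01 ± 0.29 with WM-2474 and 2.37 ± 0.30 with DMSO.
Hey1 (chromosome 3, 8663359 to 8667038), another repressor of the same family, had 0.738, 1.42 and 0.944 RPKM with WM-2474 at 240 h, against 0.694, 0.305 and 0.426 RPKM with WM-2474 at 96 h. With DMSO it had 1.61, 1.85 and 1.24 RPKM at 240 h, against 0.268, 0.399 and 0.403 RPKM at 96 h. The gap between the times was narrow with WM-2474 and wide with DMSO, and the log2 fold changes were 1.12 ± 0.33 with WM-2474 and 2.07 ± 0.32 with DMSO.
Summed over Hey1, Hey2 and Heyl, the level was 3.91 ± 1.14 RPKM with WM-2474 and 4.58 ± 0.721 RPKM with DMSO at 240 h, against 0.947 ± 0.200 RPKM with WM-2474 and 0.774 ± 0.229 RPKM with DMSO at 96 h. Hes1 alone still made up between 93.5 and 98.5% of the summed level of these 4 repressor genes in the group means.

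Nrarp (chromosome 2, 25180758 to 25183339), whose protein binds the Notch nuclear complex and dampens it, had 4 to 38 counts per library. It stood at 0.336, 0.590 and 0.493 RPKM with WM-2474 at 240 h, against 0.386, 0.293 and 0.364 RPKM with WM-2474 at 96 h. With DMSO it had 0.219, 0.473 and 0.590 RPKM at 240 h, against 0.183, 0.170 and 0.115 RPKM at 96 h. The WM-2474 libraries of the times overlapped and the DMSO libraries did not. The log2 fold change was 0.46 ± 0.37 with WM-2474 and 1.60 ± 0.41 with DMSO, where it was 1.13 without DMSO 240 h replicate 3. An antisense transcript, Gm38287, overlaps an exon of Nrarp.

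In edgeR's quasi-likelihood fit over all tested genes, 8 of the 9 genes passed an adjusted p of 0.05 (Benjamini-Hochberg) between 240 h and 96 h with WM-2474, 7 of them higher and 1, Notch2, lower. The background there was 30.7% of the 13499 genes, 15.9% higher and 14.8% lower. With DMSO 9 of 9 passed, 8 higher and 1 lower, where 34.8% of all genes passed, 17.5% higher and 17.3% lower. The libraries of the 2 times did not overlap for 8 of the 9 genes with WM-2474, against 42.4% of all genes (21.1% higher, 21.2% lower), and for 9 of 9 with DMSO, against 45.7% (22.9% higher, 22.8% lower). The median log2 fold change was 1.12 over the 9 genes with WM-2474 and 1.60 with DMSO, and -0.00 and -0.01 over all tested genes. The genes were chosen with these changes known. Heyl and Nrarp passed the filter only through their 240 h libraries. Notch2 no longer passed with DMSO when replicate 2 at 96 h was left out (-0.13), nor without replicate 3 at 240 h (-0.18), nor without replicates 1 and 2 at 240 h together (-0.18). Nrarp no longer passed with DMSO without replicate 3 at 240 h (1.13). With WM-2474, Notch2 and Hey1 no longer passed without replicate 2 at 96 h (-0.13 and 0.89) or without replicate 2 at 240 h (-0.13 and 0.77).

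**Figure D3:**
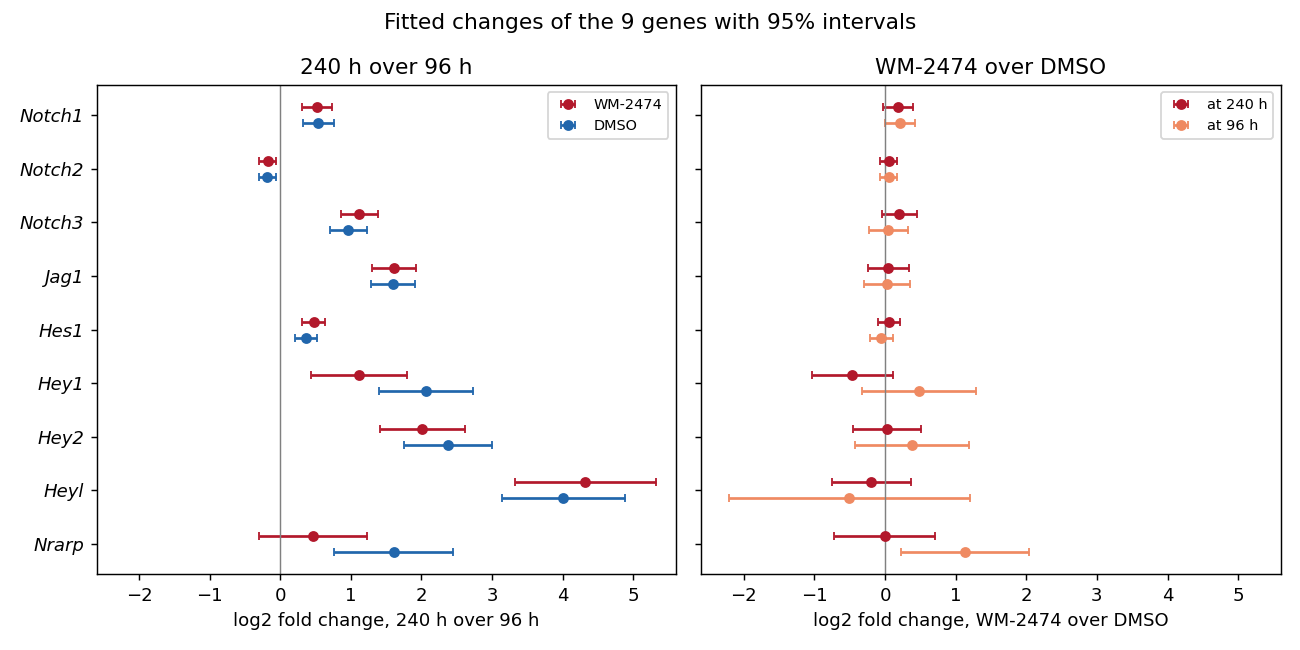
Fitted log2 fold changes of the 9 genes (points) with 95% intervals (bars), 240 h over 96 h by treatment on the left and WM-2474 over DMSO by time on the right, on the same horizontal scale. The time differences reach 4.32 for Heyl, while on the right 17 of 18 intervals include 0, the exception being Nrarp at 96 h.

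WM-2474 was set against its vehicle to see whether the control compound affects these genes on its own. None of the 9 passed the adjusted threshold at 240 h, where 0.0296% of all genes passed (4 genes, with 1099 at an unadjusted p under 0.05), and the smallest adjusted p of the 9 was 0.655. At 96 h 0 of the 9 passed as well, where 0% of all genes did, with 283 genes at an unadjusted p under 0.05. Limma-voom also called 0 of the 9 genes at either time, and DESeq2 0 of the 9 at 96 h and 0 of the 3 to which it gave an adjusted p at 240 h (Notch2, Jag1 and Hes1). At an unadjusted p under 0.05 there were 0 of the 9 genes at 240 h and 1 at 96 h, which was Nrarp.
The abundant genes had narrow intervals. For Jag1 the log2 fold change, WM-2474 over DMSO, was 0.05 at 240 h (95% interval -0.24 to 0.33) and 0.03 at 96 h (-0.29 to 0.36). For Notch2 it was 0.05 at 240 h (-0.07 to 0.17) and 0.05 at 96 h (-0.06 to 0.17). Hes1 stood at 0.05 at 240 h (-0.10 to 0.21) and -0.05 at 96 h (-0.21 to 0.11). Notch3 stood at 0.20 at 240 h (-0.05 to 0.45) and 0.05 at 96 h (-0.22 to 0.32).
All 3 receptors had positive values at both times, and Notch1 had 0.19 at 240 h (-0.03 to 0.40) and 0.21 at 96 h (-0.01 to 0.43). Its average over both times was 0.20 (0.05 to 0.35) with an adjusted p of 0.782 in edgeR, where 0.0148% of all genes passed (2 genes, 763 at an unadjusted p under 0.05). The WM-2474 and DMSO libraries of Notch1 overlapped at both times. At 96 h the data, and not the labels, show that libraries of the same number deviate together. With the replicate number as a block, the log2 fold change of Notch1 was 0.21. Its adjusted p in edgeR was 1.00 over all 12 libraries and 0.238 in a fit of the 96 h libraries alone. That fit was chosen after seeing the data and gave the lowest of the 22 alternatives for Notch1 (0.238 to 1.00).
The sparse genes were less well bounded. Hey1 had -0.46 at 240 h (-1.04 to 0.11) and 0.49 at 96 h (-0.32 to 1.29). Hey2 had 0.02 at 240 h (-0.46 to 0.51) and 0.38 at 96 h (-0.42 to 1.19), and Heyl had -0.20 at 240 h (-0.76 to 0.37) and -0.51 at 96 h (-2.22 to 1.20). For Heyl at 96 h a change of 1 log2 unit in either direction lay inside the interval and was not detectable at this depth.
Nrarp at 96 h was the one gene of the 9 whose libraries did not overlap between the treatments. It had 15, 9 and 11 counts with WM-2474, against 8, 5 and 4 counts with DMSO, a log2 fold change of 1.14 (0.23 to 2.04) with an adjusted p of 1.00 in edgeR. Of all tested genes 7.45% had libraries that did not overlap at 96 h (3.62% higher with WM-2474, 3.83% lower), and 14.3% at 240 h (7.58% higher, 6.72% lower), where this held for 0 of the 9 genes. At 240 h the value for Nrarp was -0.00 (-0.72 to 0.71).
The change with time was also compared between the treatments, as the WM-2474 effect at 240 h minus that at 96 h. No gene passed, of the 9 or of all 13499 (0%, with 625 at an unadjusted p under 0.05), the smallest adjusted p of the 9 being 0.977 in edgeR. Without the filter on low counts 2 of all genes passed, neither of them among the 9. The largest differences were those of Nrarp, -1.14 (-2.30 to 0.02), and Hey1, -0.95 (-1.94 to 0.04), both sparse. Of the 9, 1 gene, Nrarp, was at an unadjusted p under 0.05 (0.04996), although its interval includes 0: the interval is centred on edgeR's shrunken fold change and the test is not. For Jag1 the difference was 0.02 (-0.42 to 0.45) and for Notch3 0.16 (-0.21 to 0.52), so that their higher 240 h level was not shown to depend on the treatment.

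Beyond the 9 genes, a list of 60 further pathway genes covered the other receptors and ligands, receptor processing, ligand uptake, proteases, nuclear factors, turnover and related repressors. Of these, 48 were tested. With WM-2474, 8 rose and 9 fell at 240 h against 96 h, with a median log2 fold change of -0.01, and with DMSO 9 rose and 10 fell, also with a median of -0.01, where 30.7% and 34.8% of all genes passed. Scaled by library totals alone, which put the median of all genes at -0.14 and -0.13, 3 rose and 18 fell with WM-2474, and 1 rose and 19 fell with DMSO. The count for DMSO was lower with fewer DMSO 240 h libraries: 11 genes of the list passed without replicate 3 and 9 without replicates 1 and 2, against 19 with all 3. Between WM-2474 and DMSO 0 of the 48 passed at either time, on average or in the difference.

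**Figure D4:**
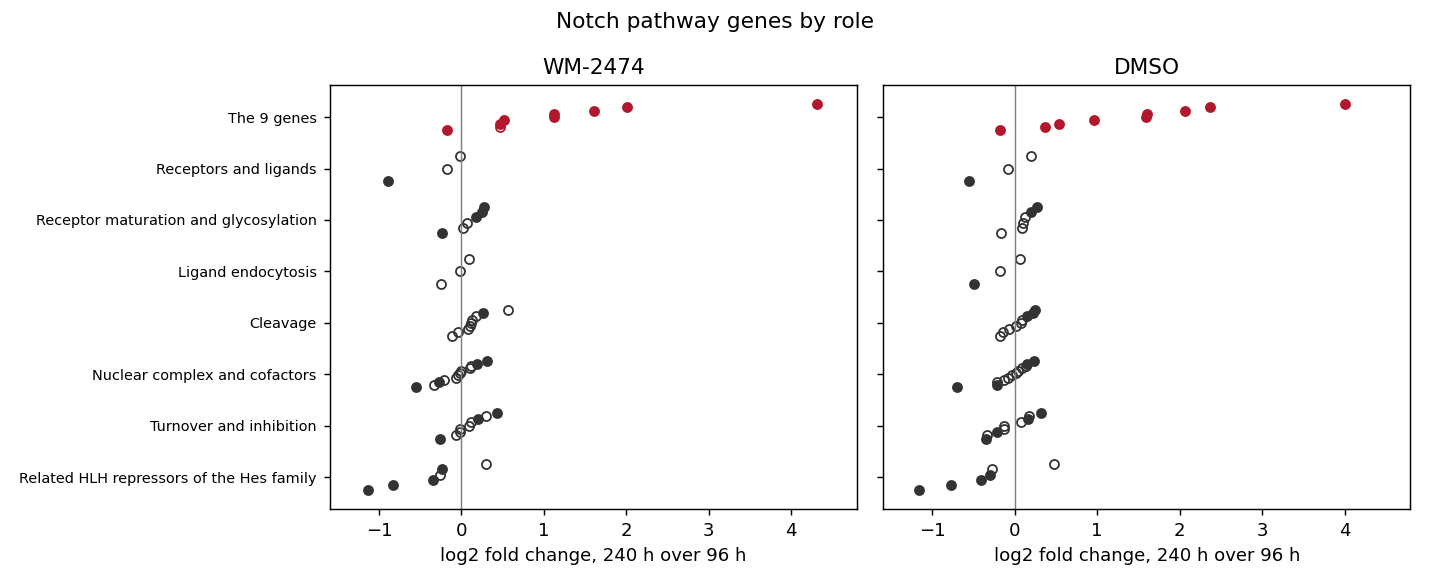
Log2 fold changes, 240 h over 96 h, of the 9 genes (red) and of 48 further pathway genes by role (black), with WM-2474 on the left and DMSO on the right; filled points passed an adjusted p of 0.05 in edgeR and open points did not. Apart from the related HLH repressors, the further pathway genes lie within 1 log2 unit of 0, while the 9 genes reach 4.32.

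The core machinery changed by small amounts. Rbpj, the DNA-binding partner of the receptor, fell with time by 0.27 ± 0.05 (SE) on the log2 scale with WM-2474 and by 0.21 ± 0.05 with DMSO (adjusted p 0.000182 and 0.0016 in edgeR). Its level was 20.3 ± 0.839 RPKM with WM-2474 and 21.0 ± 0.305 RPKM with DMSO at 240 h, against 24.4 ± 1.20 RPKM with WM-2474 and 24.4 ± 0.742 RPKM with DMSO at 96 h. Of the Mastermind-like coactivators, Maml1 rose with WM-2474 (0.19 ± 0.06) and had 0.14 ± 0.06 with DMSO, which did not pass. Maml2 (0.12 and 0.09) and Maml3 (-0.33 and -0.21) did not pass in either treatment.
Among the proteases, Ncstn, which encodes the gamma-secretase subunit nicastrin, rose by 0.26 ± 0.04 with WM-2474 and 0.22 ± 0.04 with DMSO. Adam10, the protease of the first ligand-dependent cut, rose with DMSO (0.15 ± 0.05) and had 0.12 ± 0.05 with WM-2474, which did not pass. Aph1b, another gamma-secretase subunit, rose with DMSO (0.24 ± 0.09). Adam17 (-0.11 with WM-2474 and -0.07 with DMSO) and the catalytic subunit gene Psen2 (0.13 and 0.02) did not pass.
The sugar-transferase genes Poglut1 (0.27 ± 0.06 with WM-2474 and 0.20 ± 0.06 with DMSO) and Xxylt1 (0.25 ± 0.05 and 0.26 ± 0.05), which act on receptor repeats, rose in both treatments. With WM-2474 the fringe gene Rfng fell by 0.24 ± 0.09. Notch4 was at 5 to 54 counts per library, with -0.18 ± 0.39 for WM-2474 and 0.20 ± 0.38 for DMSO. Dlk2, a non-canonical ligand gene, fell by 0.89 ± 0.22 with WM-2474 and by 0.56 ± 0.20 with DMSO. Neurl1a, a ligase for ligand uptake, fell with DMSO by 0.50 ± 0.12.
The corepressor gene Tle1, whose protein works with Hes repressors, fell by 0.55 ± 0.08 with WM-2474 and by 0.70 ± 0.08 with DMSO. The corepressor gene Ncor1 rose with DMSO (0.15 ± 0.05). Fbxw7, which marks the Notch intracellular domain for degradation, rose by 0.43 ± 0.09 with WM-2474 and 0.32 ± 0.09 with DMSO. Numb, an inhibitor of Notch, rose with WM-2474 (0.21 ± 0.08), and Itch, a ubiquitin ligase for Notch, rose with DMSO (0.16 ± 0.06). The Deltex genes Dtx2 (-0.26 ± 0.08 with WM-2474 and -0.21 ± 0.08 with DMSO) and Dtx4 (-0.35 ± 0.12 with DMSO) fell.
Of the related helix-loop-helix repressors, 6 were tested, and 0 rose and 4 fell in each treatment. Of all genes, 14.8% fell with WM-2474 and 17.3% with DMSO. Id2 fell by 1.14 ± 0.12 with WM-2474 and by 1.17 ± 0.11 with DMSO, and Id1, like Id2 an inhibitor of DNA binding known as a BMP target, by 0.83 ± 0.08 and by 0.78 ± 0.08. Id3 (-0.24 and -0.31) and Hes6 (-0.34 and -0.41) fell as well. Hes5, a Notch target known from neural cells, had at most 2 counts in any library.

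Markers of other cells were set beside these values. Smooth muscle and mural markers, 10 of 10 detected in every library, summed to 9878 to 10218 CPM with WM-2474 and 9132 to 10387 CPM with DMSO at 240 h, against 4953 to 5295 CPM with WM-2474 and 4988 to 5224 CPM with DMSO at 96 h. Of these 10 markers, 9 rose with time in each treatment, where 15.9% of all genes rose with WM-2474 and 17.5% with DMSO, such as Acta2 (0.99 ± 0.05 with WM-2474 and 0.95 ± 0.05 with DMSO) and the pericyte marker Rgs5 (1.16 ± 0.39 and 1.67 ± 0.35), and Kcnj8 fell with DMSO. The fibroblast markers, 10 of 10 detected, moved as well: their sum was 50858 to 52723 CPM with WM-2474 and 48124 to 49635 CPM with DMSO at 240 h, against 31395 to 37105 CPM with WM-2474 and 31776 to 37316 CPM with DMSO at 96 h. Of these 10, 7 rose and 1, Pdgfra, fell in each treatment (by 0.57 with WM-2474 and by 0.52 with DMSO on the log2 scale). Endothelial markers, 7 to 9 of 10 detected, summed to 74.8 to 105 CPM with WM-2474 and 81.4 to 102 CPM with DMSO at 240 h, against 45.8 to 56.0 CPM with WM-2474 and 47.6 to 54.8 CPM with DMSO at 96 h. Flt1 made up most of that sum and rose with time (1.10 ± 0.17 with WM-2474 and 1.07 ± 0.17 with DMSO). The other 4 endothelial markers tested had lower values at 240 h. Kdr, Tek and Esam fell with WM-2474, and Kdr fell with DMSO. Emcn did not pass in either (-1.01 with WM-2474 and -0.85 with DMSO), nor did Tek and Esam with DMSO. The median log2 fold change of these 5 was -1.10 with WM-2474 and -0.85 with DMSO. Of the endothelial markers that were not tested, Sox17 had 0 counts, Tie1 at most 1, Pecam1 at most 5 and Cdh5 at most 13. Neural markers, 7 of 7 detected in every library, summed to 156 to 190 CPM over the 12 libraries. The log2 fold changes with time of the 6 tested ran from -0.64 to 1.86 with WM-2474 and from -1.01 to 1.75 with DMSO. Macrophage and leukocyte markers summed to at most 8.95 CPM in any library, and epithelial markers to at most 6.25 CPM. The part of mural-type or other cells in the Jag1, Notch3 and Hey values was not tested. In DMSO 240 h replicates 1 and 2 the summed B-lineage markers reached 10.1 and 11.3 CPM, with at most 2.54 CPM in any of the other 10 libraries. Without these 2 libraries 1 DMSO library at 240 h is left, replicate 3, which is assumed to vary like the others. The log2 fold changes with DMSO were then 1.64 for Jag1, 1.03 for Notch3 and 4.32 for Heyl. They were 0.52 for Hes1, 2.34 for Hey2 and 1.82 for Hey1. In this order, they were 1.60, 0.96, 4.01, 0.37, 2.37 and 2.07 with all 3 libraries. Leaving out replicate 3 instead gave 1.57, 0.91, 3.63, 0.25, 2.40 and 2.29. The part of B-lineage cells in these values was not tested.

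Genes whose pattern over the 12 libraries was most like that of each of the 9 were found by the root mean square difference of log2 CPM, centred on each gene's mean, among 13498 other tested genes. For Jag1 the closest were Col18a1, a basement membrane collagen (0.106 log2 units), and Ccn4 (0.128). For Notch3 they were Podn (0.0940) and the collagen gene Col6a2 (0.0989). Hey2 was closest to Actg2, a smooth muscle actin (0.284), and Parm1 (0.305). Heyl had no close partner, the nearest being the collagen gene Col15a1 (0.725) and Fndc1 (0.843). Hey1 was nearest to Kcnf1 (0.313) and Dsp (0.339), and Nrarp to Arl4d (0.297) and Ppm1j (0.332).
The remaining genes sat among many with small differences. Notch1 was nearest to the growth-control gene Btg2 (0.0963) and Prag1 (0.0985), Hes1 to Spry1 (0.0681) and Adamts10 (0.0685), and Notch2 to Pom121 (0.0410) and U2af2 (0.0415). All these values share the same 12 libraries and depend on the count depth of each gene, and sparse genes have larger differences to every other gene. Between replicates, the coefficient of variation of the RPKM was 0.268 to 15.6% for Notch1, Notch2, Notch3, Jag1 and Hes1 over the 4 groups and 2.77 to 76.3% for Hey1, Hey2, Heyl and Nrarp.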

How the data were processed

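Libraries of 12 fibroblast cultures were made with a stranded mRNA kit, per the labels' protocols. The authors deposited 1 table of raw counts per gene with exon lengths; the counts came from featureCounts on mm10, per the submitters' processing notes. Aligner, annotation and strand setting are not given in the sources used here. Of 27179 table entries, 874 without a gene identifier (0.547 to 0.648% of counts) were left out. RefSeq (GRCm38.p6) gave symbols to 25275 of 26305 identifiers (96.1%). Replicates of a group differed by more than sampling noise (chi-square per degree of freedom 2.05 to 5.25).

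Genes were filtered with filterByExpr by group (10 counts at the median library size, or 0.881 CPM before TMM scaling, in at least 3 libraries). They were then given TMM scaling factors, which were 0.943 to 0.967 in the 240 h libraries and 1.04 to 1.05 in the 96 h libraries. edgeR 4.0.16 in R 4.3.3 fitted all 12 libraries with 1 coefficient per group (quasi-likelihood, robust, two-sided, Benjamini-Hochberg over all tested genes in each of 6 contrasts, threshold 0.05). A run on simulated counts used the same spread setting for every gene, so it does not show how the fit behaves for sparse genes. An exact permutation of 3 against 3 libraries cannot go below 0.1. Intervals are 95% and come from the fitted spread. RPKM were computed here from the deposited counts and lengths. The 9 genes, the 60 pathway genes and the 62 markers were chosen with earlier results of these data known. All 9 genes are described; of the pathway list, core genes are named in any case, and otherwise up to 2 passing genes per role and direction with the smallest p; some genes of the list are not reported here. For each of the 9, the 2 genes nearest in pattern are named. Other names (Id3, Hes6 and single markers) were chosen after their values were seen.

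Replicate numbers of WM-2474 and DMSO libraries paired at 96 h, by the data alone, with correlations of deviations of 0.301, 0.235 and 0.191. Between the times, DMSO libraries of the same number had 0.0557, 0.0950 and 0.132, against -0.0804 to -0.0164 for unlike numbers. WM-2474 libraries had -0.00783, 0.0804 and 0.0664 between the times, against -0.0818 to 0.0113 for unlike numbers. The main fit had no term for the replicate number. Alternatives were RLE size factors, library totals, other filters, DESeq2 1.42.0, limma-voom (limma 3.58.1), a replicate block, only the libraries compared, and leaving out libraries. Figures were drawn with matplotlib 3.10.9 in Python 3.11.15 (pandas 2.3.3).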

Additional observations from a re-analysis of the deposited data

Results flagged for a closer look

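Egfl7, a secreted Notch antagonist on the list of turnover and inhibition genes, had values on opposite sides of DMSO with WM-2474 at the 2 times, though it did not pass at either. At 240 h it had 5.10, 5.03 and 5.32 CPM with WM-2474, against 3.26, 3.67 and 4.25 CPM with DMSO, a log2 fold change of 0.40. At 96 h it had 4.06, 4.29 and 4.18 CPM with WM-2474, against 4.60, 4.92 and 5.25 CPM with DMSO, a log2 fold change of -0.24. The libraries of the treatments did not overlap at either time, in opposite directions, which drew attention to the gene. Of all tested genes 14.3% did not overlap at 240 h and 7.45% at 96 h, each time taken alone. The share of all genes that did so at both times in opposite directions was not computed. The difference of the effects, 240 h minus 96 h, was 0.635 on the log2 scale and did not pass, with an adjusted p of 0.977 in edgeR over all tested genes. None of the 9 genes showed such a crossing.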

How the results depend on the processing

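None of the 9 genes was called between WM-2474 and DMSO under any alternative that gave it an adjusted p, at either time, on average or in the difference. At 240 h DESeq2 gave none for 6 of the 9. Between 240 h and 96 h, 6 to 8 of the 9 passed with WM-2474 and 7 to 9 with DMSO. None of 377 alternative log2 values of the 9 genes for the times had another sign, and 25 of 383 did for the treatments, where none passed. The pathway count with DMSO was 19 and ran between 11 and 19 when single libraries were left out (lowest without DMSO 240 h replicate 3, where it was 11), and it was 9 without DMSO 240 h replicates 1 and 2 together, where fewer libraries remained. With the replicate block, members called stayed at 8 with WM-2474 and 9 with DMSO for the times and at 0 for the treatments, and pathway genes were 17 and 20. At 96 h, where the numbers pair, the block with only the 96 h libraries (chosen after seeing the data) called 0 of the 9, 0 pathway genes and 3 of all genes, against 0 without it. At 240 h the same numbers had weaker correlations (0.0971, 0.114 and 0.0397), each above those of unlike numbers (-0.114 to 0.0231). The block called 7 of all genes there, against 4.

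Library totals in place of TMM factors put the median of all genes at -0.14 with WM-2474 and -0.13 with DMSO between the times, against -0.00 and -0.01, and split the calls into 1097 higher and 4391 lower with WM-2474 and 1190 higher and 4381 lower with DMSO, against 2147 and 1999 with WM-2474 and 2364 and 2330 with DMSO. Notch2 was then at -0.31 and -0.30, still the only one of the 9 that was lower. Of all genes, 4 passed between treatments at 240 h, but 47 without a filter, 15 with only the libraries compared, 11 in DESeq2, 2 in limma-voom, 0 to 19 without single libraries and 0 without DMSO 240 h replicates 1 and 2. The average had 2, with 6 unfiltered, 0 in limma-voom or with library totals, and 0 to 13 without single libraries, and the difference 0, with 2 unfiltered. For time with DMSO, 2863 genes passed without DMSO 240 h replicates 1 and 2, against 4694. Under some filters Heyl and Nrarp were not tested and have no value. Depth limits the Hey genes and Nrarp most. As TPM, all levels were on another scale.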

Other observations

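The promoter windows were also searched for the letters that Hes and Hey repressors are known to bind. The N box CACNAG, on either strand, was in 4 of the 6 windows at hand: at 3 places in Notch1, 2 in Notch3, 2 in Nrarp and 1 in Notch2, with none in Jag1 and Hey2. Among 32851 RefSeq windows of the same length 42.5% held it. The E box CACGTG was in the window of Nrarp and in none of the other 5, where 7.15% of all windows held it. These are counts of letters and not of binding.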
